A study of Homo sapiens with 15 samples.

Results

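Cells that had received a lentivirus with Cas9 and a control guide were compared with cells that had not received that lentivirus. The comparison used 9 of the 15 RNA-seq libraries of the series: 3 untransduced, 3 sg1-Control and 3 sg2-Control. The 9 were chosen by their labels, and the 6 control guide libraries are together called sgControl. All cells were HEK-293T, a human embryonic kidney line, and the study's text describes the reporter cells as a knock-in of GFP at the PSMB5 locus that also carried exogenous PSMB5. The study's methods express exogenous proteasome subunits from lentiviral vectors, so cells labelled untransduced may already carry such a vector. Whether all groups derive from a single clone is not given in the sources used here. The untransduced cells are labelled wild type, and the sgControl cells are labelled as expressing a control sgRNA. The control guides are directed at introns of different genes, that of sg1-Control in FOXP1, and the vector brings Cas9, the guide and puromycin resistance together. Virus, Cas9, a cut at the guide's site, any drug selection and the state of each culture at harvest cannot be told apart here, and how the sgControl cells were selected or sorted is not given in the sources used here. The other 6 libraries received the same vector with a guide against THAP1 (sgTHAP1) and came from cells sorted for low GFP, and they serve only for values given side by side.

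Immediate early genes are transcribed soon after a signal such as a growth factor or fresh serum, without new protein synthesis, and many are switched on by ERK kinase through the serum response factor SRF and its ETS partners. ERK signalling also induces its own inhibitors, among them the Sprouty and DUSP proteins. ATF4 is the transcription factor of the integrated stress response, which cells use when amino acids run short or proteins misfold, and it drives genes of amino acid synthesis and transport.

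Library depth was 30400149 to 36548569 reads in untransduced and 31900204 to 56638455 in sgControl cells. Expression is given as log2 RPM, the log2 of reads scaled to the library total, so levels may be compared between libraries but not between genes. Listed genes held 90.8% to 91.0% of the reads of the untransduced libraries and 92.7% to 93.2% of those of the sgControl libraries, and the part of this difference in the results was not tested. The 7 HEK-293T markers were all tested and summed to 1742 to 1774 RPM in untransduced and 1499 to 1650 RPM in sgControl cells. Markers of blood cells, T cells, A549 and other epithelial lines each summed to at most 2.79 RPM, and the T cell marker CD3D had no read in any of the 9 libraries. THAP1 stood at 3.46, 3.36 and 3.45 log2 RPM in untransduced and at 3.25 to 3.57 (median 3.46) in sgControl cells, with overlapping groups and a difference of 0.02 (standard error 0.07, adjusted p = 0.787) whose sign some alternative fits turned.

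Control guide cells differed from untransduced cells across much of the transcriptome. Of the 16787 genes tested, 410 (2.44%) were called higher and 1862 (11.1%) lower, a call being a limma adjusted p under 0.001 with more than 2-fold change. Without the fold and at an adjusted p under 0.05, 5256 genes (31.3%) were higher and 7540 (44.9%) lower, and the groups of libraries did not overlap for 11266 genes (67.1%). Calls of more than 8-fold numbered 32 upwards and 94 downwards.

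**Figure D1:**
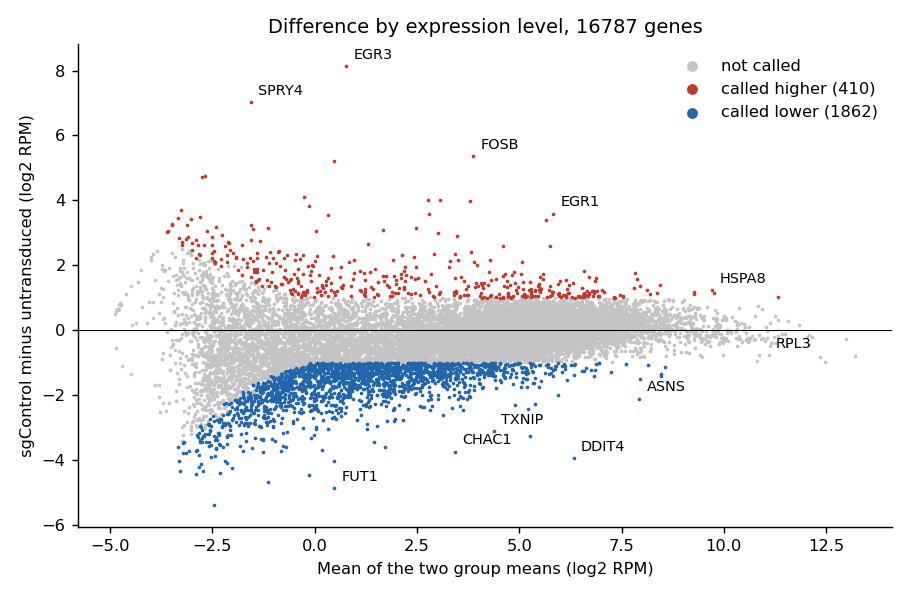
Each point is 1 of 16787 genes, with the mean of its group levels in log2 RPM on the x axis and the sgControl minus untransduced difference in log2 RPM on the y axis; red points are the 410 genes called higher and blue points the 1862 called lower. EGR3 (8.14) and SPRY4 (7.02) lie highest among the labelled genes, and most blue points lie at low levels.

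The excess of falls lay among weakly expressed genes and depended on the scaling. Among the 2079 genes with a mean level from 0 to 2 log2 RPM, 32.5% were called lower and 3.32% higher, with a median log2 fold change of -0.63. Among the 2844 genes from 6 to 8 log2 RPM, 0.844% were called lower and 1.72% higher, with a median of 0.16. The median over all genes was -0.12. Quantile normalization moved it to -0.0038 and called 863 genes higher and 782 lower, and median centring moved it to 0.03 and called 656 higher and 1371 lower. Under the deposited scaling and both others, 382 genes were called higher and 714 lower. The list medians that follow are to be read beside the -0.12 of all genes, and beside genes of similar level. The heat shock, ribosome biogenesis, proteasome and G1/S lists had median levels of 6.97, 6.93, 7.24 and 6.60 log2 RPM. Their median fold changes are to be read beside the 0.16 of genes from 6 to 8 log2 RPM.

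**Figure D2:**
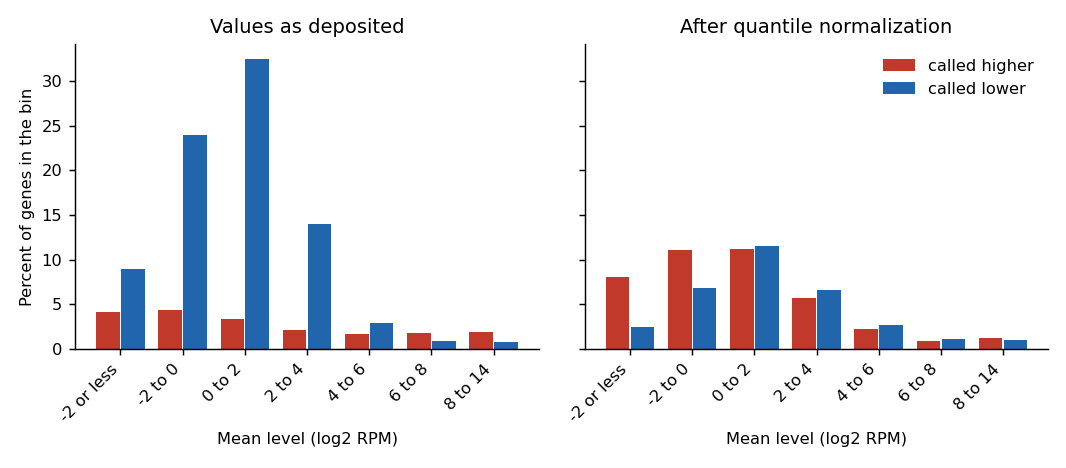
Bars give the percent of genes called higher (red) and lower (blue) in each bin of mean level in log2 RPM, with the values as deposited on the left and after quantile normalization on the right. In the bin from 0 to 2 log2 RPM, 32.5% were called lower as deposited and 11.5% after quantile normalization.

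Immediate early genes rose together. Of the 31 genes on the list, all tested, 23 were called higher and none lower, against 2.44% of all genes called higher, and the median log2 fold change was 1.57. EGR1, a zinc finger factor of the early growth response family, stood at 3.87, 4.19 and 4.05 log2 RPM in untransduced and at 7.19 to 8.04 (median 7.62) in sgControl cells. The groups did not overlap, and EGR1 rose by 3.59 on the log2 scale (standard error 0.04, adjusted p = 8.1e-39). Its relative EGR3 stood at -2.12, -2.87 and -4.93 in untransduced and at 4.37 to 5.21 (median 4.93) in sgControl cells, a log2 fold change of 8.14 (standard error 0.27) that rests on few reads in untransduced cells. EGR2 rose by 3.53 (standard error 0.20). EGR4 had 2 reads in the 3 untransduced libraries together and 209 in the 6 sgControl libraries, a depth-scaled ratio of 41.5 (95% exact interval 11.3 to 345, counting error only).

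The AP-1 factors moved unequally. FOSB, a partner of JUN in AP-1, stood at 0.88, 1.28 and 1.43 log2 RPM in untransduced and at 6.34 to 6.77 (median 6.58) in sgControl cells. That is a 41.2-fold rise with no overlap (log2 fold change 5.36, standard error 0.07, adjusted p = 5.39e-38). FOSL1 rose by 3.82 on the log2 scale (standard error 0.31), FOS by 2.18 (0.08) and JUNB by 1.38 (0.06), the JUNB call being lost with sg2-Control alone, while JUN, at 8.34 to 8.38 in untransduced cells, rose by 0.66 (0.02). The orphan nuclear receptors NR4A1 and NR4A3 rose by 3.4 and 3.98 on the log2 scale (standard errors 0.04 and 0.05). NR4A1 stood at 3.82, 3.98 and 4.07 in untransduced and at 7.04 to 7.69 (median 7.34) in sgControl cells. ARC, a synaptic protein encoded by an activity-induced gene, rose by 4.01 (standard error 0.10). MYC, which drives cell growth, went from 7.4, 7.38 and 7.45 to 7.15 to 7.4 (median 7.26) with overlapping groups, a change of -0.14 in log2 (standard error 0.03, adjusted p = 1.94e-05) that was 0.01 after median centring. In the sgTHAP1 libraries EGR1 stood at 4.3 to 4.88, FOSB at 2.92 to 3.37 and NR4A1 at 2.7 to 2.99 log2 RPM.

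**Figure D3:**
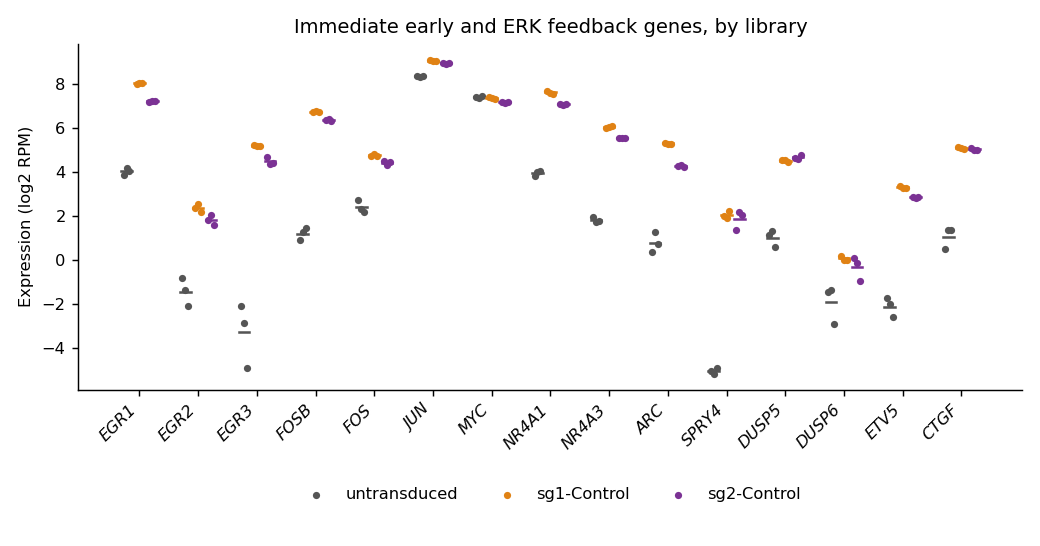
Points are single libraries, with expression in log2 RPM on the y axis, for 15 immediate early and ERK feedback genes; colours give untransduced, sg1-Control and sg2-Control cells, and short lines are means of 3 libraries. EGR1 lies at 3.87 to 4.19 in untransduced and at 7.19 to 8.04 in sgControl libraries, and MYC is nearly level.

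Most ERK feedback and ETS genes rose as well. Of the 25 ERK feedback and ETS genes, all tested, 15 were called higher, against 2.44% of all genes, and none lower, with a median log2 fold change of 1.21. At an adjusted p under 0.05, 18 were higher and 3 lower, against 31.3% and 44.9% of all genes. The 3 were LIF (-0.81), EPHA4 (-0.74) and the Sprouty gene SPRY1 (-0.17), which had 0.04 after quantile normalization. SPRY4, a Sprouty inhibitor of receptor tyrosine kinase signalling, had 2 reads in the 3 untransduced libraries together and 961 in the 6 sgControl libraries, a depth-scaled ratio of 191 (95% exact interval 52.7 to 1578, counting error only). ETV5, an ETS transcription factor, stood at -1.76, -2.02 and -2.61 log2 RPM in untransduced and at 2.84 to 3.37 (median 3.08) in sgControl cells. All 6 sgControl libraries lay above all 3 others (log2 fold change 5.21, standard error 0.16, adjusted p = 9.35e-26). Its relatives ETV4 and ETV1 rose by 3.14 and 2.33 (standard errors 0.36 and 0.23). DUSP5, a nuclear ERK phosphatase, stood at 1.14, 1.32 and 0.59 and at 4.45 to 4.75 (median 4.56), and rose by 3.57 (standard error 0.10). DUSP6, the cytoplasmic ERK phosphatase, rose by 1.79 (standard error 0.35) from 0.292 to 0.938 RPM, a call lost with sg2-Control alone, with no filter on low values and with a pseudocount. GPR3, a receptor that raises cyclic AMP, rose by 4.12 (standard error 0.26), and MAFF, a small MAF factor, by 3.15 (standard error 0.09).

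SRF and YAP target genes were mixed. Of the 19 tested, 5 were called higher and 1 lower, against 2.44% and 11.1% of all genes, with a median of 0.61. CTGF and CYR61, secreted matrix proteins that are standard YAP targets, rose by 4.0 and 2.59 on the log2 scale (standard errors 0.10 and 0.04). CTGF stood at 0.50, 1.35 and 1.34 log2 RPM in untransduced and at 5.0 to 5.13 (median 5.07) in sgControl cells. ANKRD1, another YAP target, rose by 2.65 (standard error 0.14) and SRF itself by 1.2 (standard error 0.03). ACTA2, smooth muscle actin, fell by 1.27 (standard error 0.18), a call lost after quantile normalization, and it overlaps FAS on the genome. CTGF, CYR61 and SRF are also on the immediate early list.

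Promoters of early genes are shown because sequences that SRF or CREB and ATF factors recognise stand in them. Sequence was taken from RefSeq (GRCh38.p14), from 250 bases before to 50 after the start, and was matched for 23 of the 31 immediate early, 19 of the 25 ERK feedback and 28 of the 33 ATF4 target genes. The CArG box of SRF was found in 2 of the 23 (8.7%), EGR1 and SRF, against 1.29% of all 27305 promoters. The CRE TGACGTCA was found in 2 of the 23 immediate early promoters (8.7%) and in 4 of the 19 ERK feedback promoters (21.1%), GPR3 and MAFF among them, against 1.98% of all. Its core TGACG, which lies within the CRE, was found in 60.9% and 52.6%, against 25% of all, and also in 54.5% of heat shock and 43.8% of ribosome biogenesis promoters. The AP-1 site TGACTCA stood in 4.35% and 21.1% against 4.92%, the ETS core CCGGAA in 21.7% and 26.3% against 17.6%, and the TATA box TATAAA in 26.1% and 5.26% against 12%. Both strands were searched, and a match describes letters, not a bound site. Capitals mark the CArG box and TGACG, on either strand.
EGR1 (chr5:138465229-138465528, plus strand): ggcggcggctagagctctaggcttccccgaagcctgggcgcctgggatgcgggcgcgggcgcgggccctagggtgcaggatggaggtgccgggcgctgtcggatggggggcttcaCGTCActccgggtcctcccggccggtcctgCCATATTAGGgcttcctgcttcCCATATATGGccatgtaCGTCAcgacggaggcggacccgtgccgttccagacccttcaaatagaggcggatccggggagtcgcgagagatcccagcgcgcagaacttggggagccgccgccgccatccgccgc
SRF (chr6:43171019-43171318, plus strand): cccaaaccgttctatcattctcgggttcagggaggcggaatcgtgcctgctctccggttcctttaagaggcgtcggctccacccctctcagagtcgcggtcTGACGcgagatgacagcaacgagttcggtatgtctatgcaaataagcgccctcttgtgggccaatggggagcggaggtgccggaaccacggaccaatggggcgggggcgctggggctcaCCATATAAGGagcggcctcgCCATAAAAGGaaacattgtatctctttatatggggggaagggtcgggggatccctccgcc
GPR3 (chr1:27392372-27392671, plus strand): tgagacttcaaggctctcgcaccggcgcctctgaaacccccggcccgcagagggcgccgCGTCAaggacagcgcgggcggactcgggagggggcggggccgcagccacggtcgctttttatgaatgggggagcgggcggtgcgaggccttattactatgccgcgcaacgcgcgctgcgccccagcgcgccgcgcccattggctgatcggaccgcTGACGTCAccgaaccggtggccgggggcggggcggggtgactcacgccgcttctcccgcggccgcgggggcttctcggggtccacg
MAFF (chr22:38201744-38202043, plus strand): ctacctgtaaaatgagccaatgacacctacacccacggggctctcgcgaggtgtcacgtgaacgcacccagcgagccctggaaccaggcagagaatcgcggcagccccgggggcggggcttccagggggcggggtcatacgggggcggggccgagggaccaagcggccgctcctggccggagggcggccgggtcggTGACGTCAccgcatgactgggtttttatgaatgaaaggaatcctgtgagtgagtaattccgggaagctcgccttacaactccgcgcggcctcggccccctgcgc

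Targets of ATF4 had the lowest median of the 38 pathway lists. Of the 33 genes, all tested, 20 were called lower, against 11.1% of all genes, and 2 were called higher, with a median log2 fold change of -1.23, or -1.30 after quantile normalization. DDIT4, an inhibitor of mTORC1, stood at 8.34, 8.3 and 8.29 log2 RPM in untransduced and at 4.2 to 4.43 (median 4.37) in sgControl cells. That is a 15.5-fold fall with no overlap (log2 fold change -3.95, standard error 0.04, adjusted p = 1.11e-39). CHAC1, which degrades glutathione, stood at 5.35, 5.3 and 5.26 and at 1.39 to 1.81 (median 1.5), and fell by 3.74 (standard error 0.10). ADM2, a secreted peptide of the calcitonin family, fell by 3.6 (standard error 0.20), and PCK2, mitochondrial phosphoenolpyruvate carboxykinase, by 3.25 (standard error 0.05).

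Several enzymes of amino acid synthesis were among the genes of the list that fell, chosen here as examples. ASNS, asparagine synthetase, stood at 8.97, 9.0 and 8.99 log2 RPM in untransduced and at 6.81 to 6.94 (median 6.88) in sgControl cells. It dropped 4.31-fold without overlap (log2 fold change -2.11, standard error 0.03, adjusted p = 3.01e-38). PHGDH and PSAT1, enzymes of serine synthesis, fell by 1.36 and 1.42 on the log2 scale (standard errors 0.03 and 0.02). CTH, which makes cysteine, fell by 2.28 (standard error 0.05), and SLC7A11, the cystine transporter, fell by 1.99 (standard error 0.05). Not all such genes fell: ALDH18A1, of proline synthesis, had a log2 fold change of 0.26, and the transporters SLC7A5, SLC3A2, SLC7A1 and SLC1A5 had -0.06, 0.02, 0.02 and 0.08. ATF4 mRNA itself, whose use is controlled largely at translation, stood at 9.92, 9.95 and 9.89 and at 9.37 to 9.46 (median 9.43), and fell by 0.50 (standard error 0.02).

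Other stress factors on the list moved upwards or less. ATF5, a relative of ATF4, went from 3.32, 3.32 and 2.98 to 5.33 to 5.46 (median 5.37) log2 RPM and rose by 2.17 (standard error 0.06). ATF3, also on the immediate early list, rose by 1.22 (standard error 0.03), and PPP1R15A, which restores translation after stress, by 0.89 (standard error 0.04). DDIT3, the factor CHOP, fell by 1.13 (standard error 0.07), a call lost under quantile normalization and median centring, and TRIB3, a pseudokinase, by 0.81 (standard error 0.07). In the sgTHAP1 libraries DDIT4 stood at 3.92 to 4.38, CHAC1 at 1.27 to 1.77 and ASNS at 7.08 to 7.33 log2 RPM.

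**Figure D4:**
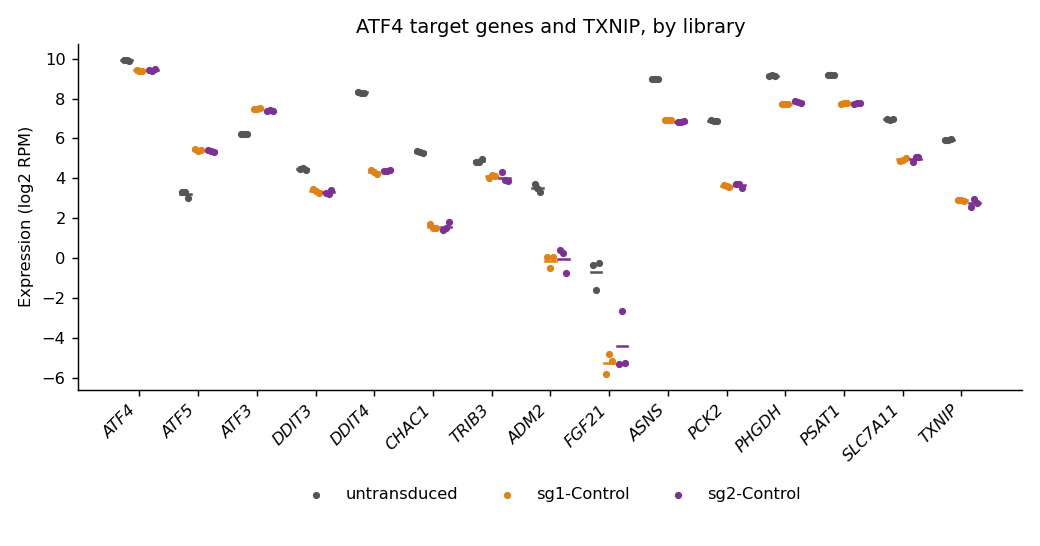
Points are single libraries, with expression in log2 RPM on the y axis, for ATF4, 13 of its targets and TXNIP; colours give untransduced, sg1-Control and sg2-Control cells, and short lines are means of 3 libraries. DDIT4 lies at 8.29 to 8.34 in untransduced and at 4.2 to 4.43 in sgControl libraries, while ATF5 and ATF3 lie higher in sgControl.

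ATF4 binds composite elements together with C/EBP factors. The letters TGATGNAA, a motif added after the values were seen, stood on either strand in 6 of the 28 ATF4 target promoters (21.4%), against 3.67% of all promoters. These were ASNS, CHAC1 and FGF21, which fell, ATF3, which rose, and SLC3A2 and SLC7A1, whose changes did not pass the test. The ASNS and CHAC1 promoters are shown as examples, with these letters in capitals.
ASNS (chr7:97872359-97872658, minus strand): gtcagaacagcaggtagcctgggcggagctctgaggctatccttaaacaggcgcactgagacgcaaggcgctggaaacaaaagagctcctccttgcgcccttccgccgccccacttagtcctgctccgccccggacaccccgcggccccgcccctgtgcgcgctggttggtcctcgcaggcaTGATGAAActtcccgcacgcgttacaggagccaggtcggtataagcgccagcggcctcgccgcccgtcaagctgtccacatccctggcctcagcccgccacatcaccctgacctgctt
CHAC1 (chr15:40953221-40953520, plus strand): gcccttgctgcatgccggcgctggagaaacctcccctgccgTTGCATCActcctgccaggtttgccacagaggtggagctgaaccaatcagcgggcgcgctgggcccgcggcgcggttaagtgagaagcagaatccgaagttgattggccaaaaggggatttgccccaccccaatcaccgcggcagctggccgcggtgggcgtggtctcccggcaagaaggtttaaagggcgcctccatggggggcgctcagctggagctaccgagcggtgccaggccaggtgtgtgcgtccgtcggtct

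TXNIP and its relative ARRDC4, which respond to glucose, also fell. TXNIP, an inhibitor of glucose uptake, stood at 5.91, 5.91 and 5.98 log2 RPM in untransduced and at 2.58 to 2.94 (median 2.87) in sgControl cells. The groups were apart (log2 fold change -3.11, standard error 0.07, adjusted p = 3.07e-30). Its relative ARRDC4 fell by 1.16 (standard error 0.05), and 4 of the 8 MondoA and glucose-responsive genes were called lower, against 11.1% of all genes, and none higher. At an adjusted p under 0.05, 6 were lower and 2, KLF10 (0.70) and MLXIP (0.27), higher, against 44.9% and 31.3% of all genes. Among 20 tRNA synthetases 2 were called lower, a share near the 11.1% of all genes, AARS by 1.52 (standard error 0.03) and CARS by 1.08 (standard error 0.03), the latter not after median centring. OGT, which adds N-acetylglucosamine to proteins, fell by 1.13 (standard error 0.03), from 557 to 255 RPM, and its call was lost under median centring.

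Chaperones, ribosome biogenesis factors and proteasome subunits were higher. Of the 24 heat shock genes tested, 8 were called higher, against 2.44% of all genes, and none lower. At an adjusted p under 0.05, 21 were higher and 2 lower, against 31.3% and 44.9% of all genes, with a median of 0.72. DNAJA1, a co-chaperone of HSP70, stood at 6.97, 6.93 and 6.93 log2 RPM in untransduced and at 8.63 to 8.8 (median 8.71) in sgControl cells. It rose by 1.76 on the log2 scale, without overlap (standard error 0.03, adjusted p = 1.43e-35). HSPA8, the constitutive HSP70, rose by 1.24 (standard error 0.02). The stress-induced HSPA1A and HSPA1B rose by 2.32 and 1.61 (standard errors 0.16 and 0.03), but these genes are near identical and their reads may be split. HSPB1, a small heat shock protein, fell by 0.62 (standard error 0.06).

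Of 38 ribosome biogenesis genes tested, 36 were higher and 1 lower at an adjusted p under 0.05, against 31.3% and 44.9% of all genes. Called higher were 8, against 2.44% of all genes, and the median was 0.75. The nucleolar factors NOP16, UTP20 and NOP2 rose by 1.57, 1.27 and 1.23 (standard errors 0.04, 0.03 and 0.03), while NOB1, which trims the precursor of small subunit rRNA, fell by 0.44 (standard error 0.03). Of the 79 cytosolic ribosomal protein genes, 68 were lower and 3 higher at an adjusted p under 0.05, against 44.9% and 31.3% of all genes. The median was -0.23. None was called, and of genes from 8 to 14 log2 RPM, where the list's median level of 9.90 lies, 0.826% were called lower. RPL3, of the large subunit, stood at 11.49, 11.48 and 11.48 and at 10.7 to 10.76 (median 10.72) log2 RPM, and fell by 0.76 (standard error 0.02). Of the 33 proteasome subunit genes, 30 were higher and none lower at an adjusted p under 0.05, with a median of 0.45. After quantile normalization 29 were higher and 3 lower, with a median of 0.33. Called higher were 2, PSMD1 and ADRM1, against 2.44% of all genes, and both calls were lost after quantile normalization. PSMB5 stood at 11.77, 11.74 and 11.76 and at 11.88 to 11.95 (median 11.92). The study states that exogenous PSMB5 kept the gene from being found as differentially expressed, so these values cannot be read as the endogenous gene alone. PSMB6, its fellow catalytic subunit, stood at 6.3, 6.25 and 6.23 and at 6.66 to 6.74 (median 6.72).

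**Figure D5:**
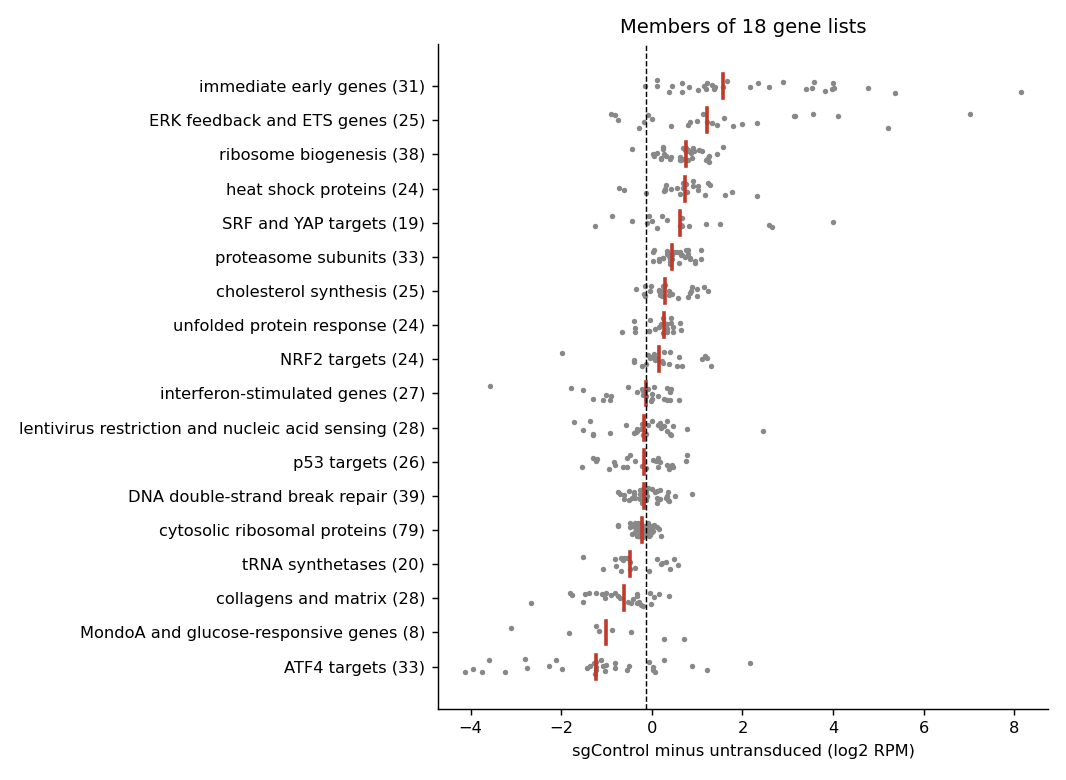
Each grey point is a tested member of 1 of 18 gene lists, placed on the x axis by its sgControl minus untransduced difference in log2 RPM; red lines are list medians, the dashed line is the median of all genes (-0.12), and counts of tested members stand in parentheses. Medians run from 1.57 for immediate early genes to -1.23 for ATF4 targets.

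On the lists of p53 targets, break repair, interferon-stimulated genes and lentivirus restriction, no gene was called higher, which for lists of this size is close to the 2.44% of all genes and is no result about them. Of the 26 p53 targets tested, 4 were called lower, and 11 were higher and 14 lower at an adjusted p under 0.05. Of all genes 11.1% were called lower, and 31.3% were higher and 44.9% lower at that level. CDKN1A, the cell cycle inhibitor p21, stood at 4.61, 4.61 and 4.59 log2 RPM in untransduced and at 4.83 to 5.08 (median 4.91) in sgControl cells, and rose by 0.34 (standard error 0.05). MDM2, which degrades p53, differed by 0.14 (standard error 0.03), or -0.01 after quantile normalization. The called falls included DDB2, a damage recognition factor, by 1.54 (standard error 0.06), and SESN2, also an ATF4 target, by 1.23 (standard error 0.04). Of the 39 genes of DNA break repair tested, 12 were higher and 24 lower at an adjusted p under 0.05, against 31.3% and 44.9% of all genes. H2AFX, the histone marked at breaks, rose by 0.88 (standard error 0.03), and FANCD2, of the Fanconi pathway, fell by 0.74 (standard error 0.03).

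Of the 27 interferon-stimulated genes tested, 6 were called lower, against 11.1% of all genes and 32.5% of those from 0 to 2 log2 RPM, where the list's median level of 1.84 lies. The median log2 fold change of -0.14 turned to 0.15 after quantile normalization. IFI44L stood at 0.88, 0.64 and 1.53 log2 RPM in untransduced and at -5.15 to -1.24 (median -2.05) in sgControl cells, and fell by 3.57 (standard error 0.46), a call lost in the fit over all 15 libraries. IFIT1, which binds foreign RNA, fell by 1.78 (standard error 0.20). Of the 28 genes of lentivirus restriction and nucleic acid sensing tested, 5 were called lower, against 11.1% of all genes and 13.98% of those from 2 to 4 log2 RPM, where the list's median level of 3.14 lies, with a median log2 fold change of -0.17 that turned to 0.14 after quantile normalization. TRIM28, a corepressor that silences retroviral sequence, stood at 8.81, 8.78 and 8.75 and at 9.46 to 9.6 (median 9.56), and rose by 0.77 (standard error 0.03).

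Extracellular matrix genes were lower. Of the 28 collagen and matrix genes tested, 10 were called lower, against 11.1% of all genes, and none higher, against 2.44%, with a median of -0.63, or -0.53 after quantile normalization. LAMB1, a laminin chain, stood at 6.94, 6.93 and 6.89 log2 RPM in untransduced and at 5.26 to 5.52 (median 5.38) in sgControl cells. It fell by 1.53 without overlap (standard error 0.04, adjusted p = 4.65e-29). COL1A1, a fibrillar collagen, fell by 1.38 (standard error 0.07), FN1, fibronectin, by 1.23 (standard error 0.08) and COL9A3, a cartilage collagen, by 2.67 (standard error 0.25). Among intermediate filaments, the neuronal INA rose by 1.59 (standard error 0.06) and PRPH, peripherin, fell by 2.8 (standard error 0.15).

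FUT1, a fucosyltransferase that makes the H antigen, had the largest fall of the coding genes named by rule, from 2.77, 3.04 and 2.92 to -2.41 to -1.34 (median -1.97) log2 RPM (log2 fold change -4.86, standard error 0.28). INHBE, an inhibin chain, fell by 4.67 (standard error 0.58). Of the 1628 transcripts without a coding label, 435 (26.7%) were called lower, against 1427 of 15159 coding genes (9.41%), and their median level was -0.52 log2 RPM against 4.45. Between 2 and 6 log2 RPM the median log2 fold changes were -0.48 for 275 such transcripts and -0.09 for 8004 coding genes. MIR210HG, the host of a hypoxia-induced microRNA, stood at 3.28, 3.08 and 3.2 and at -0.58 to 0.33 (median -0.39), and LINC00641 rose by 1.72 (standard error 0.05).

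Libraries of the control guides differed from each other in some genes. Whether libraries of a guide come from separate transductions is not given in the sources used here. Guide, transduction and harvest therefore cannot be told apart, and the adjusted p values rest on the spread among libraries within a group. Between sg2-Control and sg1-Control, 639 genes (3.81%) differed at an adjusted p under 0.05, and 1, ARC, was called at 0.001 with the fold. Without sg1-Control replicate 2 or 3 or sg2-Control replicate 2, the 639 became 359, 292 and 397. Of the 410 genes called higher in sgControl cells, 38 differed between the guides, and 31 of these were lower with sg2-Control. Of the 31 immediate early genes, 15 differed, against 3.81% of all genes, and 14 of them were lower with sg2-Control. Among all 639 genes that differed, 339 were lower and 300 higher with sg2-Control. The sg1-Control libraries had EGR1 at 8.02, 8.03 and 8.04 log2 RPM, whereas the sg2-Control libraries had it at 7.19, 7.23 and 7.22. The guides did not overlap, with sg2-Control minus sg1-Control at -0.82 (standard error 0.05, adjusted p = 1.48e-14), and both lay above untransduced cells.

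FOXP1 holds the site of sg1-Control and passed no test with the values as deposited. After median centring FOXP1 had a log2 fold change of 0.15 (limma adjusted p = 0.0042). This forkhead factor gene (chr3:70954693-71583989, GRCh38, minus strand) stood at 4.83, 4.84 and 4.88 log2 RPM in untransduced and at 4.72 to 4.95 (median 4.83) in sgControl cells, with overlapping groups and sg2-Control minus sg1-Control at 0.12 (standard error 0.05, adjusted p = 0.244). Among genes above 3 log2 RPM, the median guide difference was 0.05 for 270 genes on the telomere side of FOXP1, against -0.0020 for the others. Medians of whole chromosomes ran from -0.045 (chromosome 7) to 0.053 (chromosome 15), so the value near FOXP1 lies within that range.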

How the data were processed

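Per the labels and the study's methods, strand-specific polyA+ libraries were trimmed with cutadapt, aligned to GRCh38 with HISAT2 and quantified in SeqMonk. The authors deposited log2 RPM per gene, with 0 reads listed as 0.9 of a read, and at least 99.7% of each compared library's values were whole reads within 0.01. Whether counting used strand is not given in the sources used here, so overlapping and antisense genes are uncertain. The authors' pooled means and fold changes were not used.

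The 16787 of 35805 gene lines that reached a log2 value of -2 in 3 or more libraries were fitted with limma 3.58.1 (R 4.3.3) over the 9 libraries, 1 coefficient a group, sgControl being the mean of both guides. Adjustment was Benjamini-Hochberg over all genes tested. The study's reporting summary calls the replicates biological, and the limma fit takes the libraries of a group as independent. An exact two-sided permutation test (scipy) on 223 named genes can give no p below 0.0238, 2 of its 84 arrangements, and 213 genes gave that value; it takes libraries of 1 guide as independent. In simulated counts for this comparison, over 16787 genes, calls found 98 of 100 changes of 1.5 and 100 of 100 of 3 in log2, and 0 others. Those changes were set only in better-read genes, the spread was assumed, and no shift by expression level was drawn. The simulation therefore gives no rate of false calls for these data.

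Members and lists were chosen with earlier results of these data known. Named by rule were the 12 largest called rises and falls of coding genes with separate groups and a level of at least 1 log2 RPM, 3 of other types, 6 by RPM, 4 per list by smallest adjusted p, called guide differences, THAP1, PSMB5, FOXP1 and 1 gene that is not reported here. After their values were seen, MYC, JUN, FOS, JUNB, EGR4, ETV1, ETV4, DUSP6, ANKRD1, ACTA2, ATF3, ATF4, ATF5, CTH, DDIT3, FGF21, TRIB3, PPP1R15A, HSPA1A, HSPB1, NOB1, PSMB6, FN1, COL9A3, IFIT1, CDKN1A, MDM2, IRS4, CDH2, ALDH18A1, SLC7A5, SLC3A2, SLC7A1 and SLC1A5 were added. Bulk libraries cannot tell fewer cells from less RNA per cell. Alternatives were other filters, a pseudocount, other scalings, voom on the recovered reads, array weights, other groupings, a replicate block, other thresholds and each library left out.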

Additional observations from a re-analysis of the deposited data

Results flagged for a closer look

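Among the 109 called genes that the text could name, a single sgControl library lay apart from the other 5 for 3 genes by Dixon's criterion, which chance meets in about 1 of 20 groups. SPRY4 stood at 1.34 log2 RPM in sg2-Control replicate 1, with the next lowest at 1.91. FGF21, a hormone induced by ATF4, stood at -2.67 in sg2-Control replicate 2, with the next highest at -4.82, and DUSP6 at -0.97 in sg2-Control replicate 3, with the next lowest at -0.14.

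For 6 of these 109 genes the rise over untransduced cells differed between the libraries of the control guides in the limma test of that difference. The sg2-Control minus sg1-Control difference on the log2 scale was -1.03 for ARC (adjusted p = 5.18e-07), -0.82 for EGR1 (adjusted p = 1.48e-14), -0.76 for JUNB (adjusted p = 5.53e-10), -0.55 for NR4A1 (adjusted p = 3.35e-10), -0.49 for NR4A3 (adjusted p = 4.04e-06) and -0.42 for the ephrin receptor EPHA2 (adjusted p = 2.81e-05). All 6 were lower with sg2-Control.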

How the results depend on the processing

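Genes called higher and lower numbered 410 and 1862 as reported, 270 and 1193 with a pseudocount of 0.5 RPM, 863 and 782 after quantile normalization, 656 and 1371 after median centring, and 4266 and 5725 with no fold threshold. Leaving out 1 library gave 382 to 412 higher and 1548 to 1906 lower. The 639 genes that differed between the guides became 292 to 707 without 1 library: 359 and 292 without sg1-Control replicate 2 or 3, and 397 without sg2-Control replicate 2. The cause was not tested. Other settings kept these counts within 1.5 times.

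The replicate block gave 414 higher, 1852 lower and 670 between guides. Libraries with the same number share only that: their deviations correlated at -0.05 to 0.10, above 0.1 in 1 of 9 pairs, and the best match had the same number for 4 of 9.

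Of the 109 called named genes, 84 kept their call in all 22 alternative fits. FGF21 lost it without untransduced replicate 1 or 3, and HSP90AA1, near 2-fold, without sg2-Control replicate 3. Signs turned only for genes without a call. After quantile normalization PCDHGC4, PCDHGA1, PCDHGC3 and PCDHGA5 had 0.057, 0.10, 0.11 and 0.11, ALDH3A1 0.57, FOXP1 0.032, MDM2 -0.014 and IRS4 -0.049. After median centring ALDH3A1 had 0.12, FOXP1 0.15, MYC 0.013 and CDH2 0.12. With sg1-Control alone LCP1 had -0.025 and ALDH3A1 0.014, with sg2-Control alone THAP1 had -0.030 and FOXP1 0.057, and with voom LCP1 had -0.037. Without 1 library LCP1 ranged from -0.18 to 0.13, ALDH3A1 from -0.29 to 0.15, THAP1 from -0.0070 to 0.0585 and FOXP1 from -0.015 to 0.014. Of the 38 list medians 31 kept their sign under both scalings. Depth limits genes of a few reads, and intervals and floors cover counting error only.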

Other observations

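Further lists held fewer calls than the early and ATF4 lists. Of 25 cholesterol synthesis genes tested, 3 were called higher, against 2.44% of all genes, and none lower, with a median log2 fold change of 0.30. HMGCS1, of early sterol synthesis, rose by 1.16 (limma standard error 0.03). Of 24 NRF2 targets, 4 were called higher, among them GCLM of glutathione synthesis (1.3) and the autophagy receptor SQSTM1 (1.21), and 1 lower. Of all genes 2.44% were called higher and 11.1% lower. Of 24 unfolded protein response genes none was called. Of genes from 6 to 8 log2 RPM, where the list's median level of 6.23 lies, 1.72% were called higher and 0.844% lower. At an adjusted p under 0.05, 17 unfolded protein response genes were higher and 5 lower, against 31.3% and 44.9% of all genes. HSPA5, a chaperone, had a log2 fold change of 0.62 and XBP1 one of -0.67. Of 41 G1/S and 40 G2/M genes none was called. For lists of this size that is close to the 1.72% higher and 0.844% lower of genes from 6 to 8 log2 RPM and is no result about them. The list medians of 0.19 and 0.11 lay near the 0.16 of all genes from 6 to 8 log2 RPM. After quantile normalization the 2 list medians became 0.04 and -0.04. Of 13 mitochondrially encoded mRNAs none was called, against 1.86% higher and 0.826% lower among genes from 8 to 14 log2 RPM. At an adjusted p under 0.05, 10 of the 13 were lower and 2 higher, against 44.9% and 31.3% of all genes.

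The median immediate early gene stood 1.49 to 1.78 above its untransduced mean in the sgControl libraries and 0.25 to 0.47 above it in the sgTHAP1 libraries, in log2 RPM. The median ATF4 target stood at -1.24 to -1.09 in sgControl and at -1.36 to -1.05 in sgTHAP1 libraries. Both use the same untransduced libraries.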
